A study of Rattus norvegicus with 5 samples.

Results

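Corneal enzyme-crystallins are metabolic enzymes that the cornea holds in far greater amounts than catalysis needs. The group described here comprises 8 genes, not all of them crystallins: the aldehyde dehydrogenases Aldh3a1, Aldh1a1, Aldh1a3, Aldh2, Aldh3a2, Aldh7a1 and Aldh9a1, and transketolase, Tkt. They were chosen by symbol from a table of 20339 genes. Of the 8, 7 had a row in the gene table and 1, Aldh2, was taken from its single named row in the isoform table. All 8 passed the filter on low counts. Whole-cornea RNA was sequenced from 2 rats of the transgenic P1 hMR line, in which the human mineralocorticoid receptor gene NR3C2 is overexpressed, and from 3 wild-type rats. All 5 animals were male Sprague-Dawley rats aged 6 months, and genotype is the one difference that the labels name. The labels name the line P1 hMR without spelling out P1 or the promoter and cell types of the transgene. They do not say whether a library holds 1 cornea or more, so each library is taken as 1 rat. Below and in the figures, 1 cornea stands for 1 library, however many corneas it holds.

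Corneal crystallins belong to the soluble proteins thought to keep the epithelium and the keratocytes transparent. ALDH3A1 oxidizes aldehydes that arise when ultraviolet light damages lipids, absorbs ultraviolet light itself, and is a major soluble protein of the mammalian cornea. Transketolase, which needs thiamine, moves carbon units between sugars in the pentose phosphate pathway and is abundant in the mouse cornea, and ALDH1A1 fills the crystallin role in rabbit keratocytes. The other aldehyde dehydrogenases are housekeeping or signalling enzymes: ALDH1A1 and ALDH1A3 make retinoic acid from retinaldehyde, ALDH2 clears acetaldehyde in mitochondria, ALDH3A2 oxidizes fatty aldehydes in the endoplasmic reticulum, ALDH7A1 works in lysine breakdown, and ALDH9A1 in the synthesis of carnitine.

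The libraries held between 20874010 and 30449675 counts in the gene table. Human NR3C2 had 1094 and 1146 counts in the transgenic libraries and 0 in each of the 3 wild-type libraries, so the libraries match their labels. Krt12, the keratin of the corneal epithelium, had 45499 and 32243 CPM (counts scaled to library size by edgeR's cpm function, after TMM scaling) in transgenic corneas and 37486, 45089 and 38581 CPM in wild-type corneas, which fits the labelled tissue. Across all 13305 genes tested with edgeR's quasi-likelihood test, 1 gene, NR3C2, passed an adjusted p of 0.05, or 0.00752% of genes. Markers of neighbouring tissues differed between libraries. The 11 measured iris and pigment-cell markers summed to 115 and 191 CPM in transgenic corneas and to 77.2, 35.2 and 61.2 CPM in wild-type corneas, while 13 lens markers summed to 19.2 and 12.1 CPM in transgenic corneas and to 153, 35.1 and 27.7 CPM in wild-type corneas. Of the keratocyte and stroma list, 14 measured markers summed to 4368 and 4612 CPM in transgenic corneas and to 3573, 3569 and 3578 CPM in wild-type corneas. The corneal endothelium list, of which 8 markers were measured and 1 was at 0, summed to 1211 and 1229 CPM in transgenic corneas and to 1083, 1016 and 1083 CPM in wild-type corneas, and without Aqp1, which is on the stromal list too, to 754 and 766 CPM in transgenic corneas and to 634, 615 and 686 CPM in wild-type corneas. In bulk tissue a change in the share of a cell type and a change in RNA per cell cannot be told apart.

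None of the 8 genes passed the edgeR test between genotypes, against a background of 0.00752% of all genes. Log2 fold changes of transgenic over wild-type corneas lay between -0.22 and 0.26, and 1 of the 8, Aldh1a1, had an unadjusted p under 0.05, where 6.35% of all genes tested did. DESeq2 and limma voom also called 0 of the 8. By the point estimate 5 were higher and 3 lower in transgenic corneas, but leaving out 1 library turned the sign for Aldh3a1, Aldh3a2, Aldh7a1 and Tkt, so a direction is not given for those 4. For Aldh1a1 and Aldh2 each transgenic cornea exceeded each wild-type cornea, which held for 12% of all genes tested. For none of the 8 did each transgenic cornea fall short of each wild-type cornea, which held for 10.7% of all genes. The median log2 fold change of the 8 was 0.06, beside -0.01 over all genes tested. Because the sources used here give no transcript lengths, levels are compared between corneas for 1 gene at a time and not between genes.

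**Figure D1:**
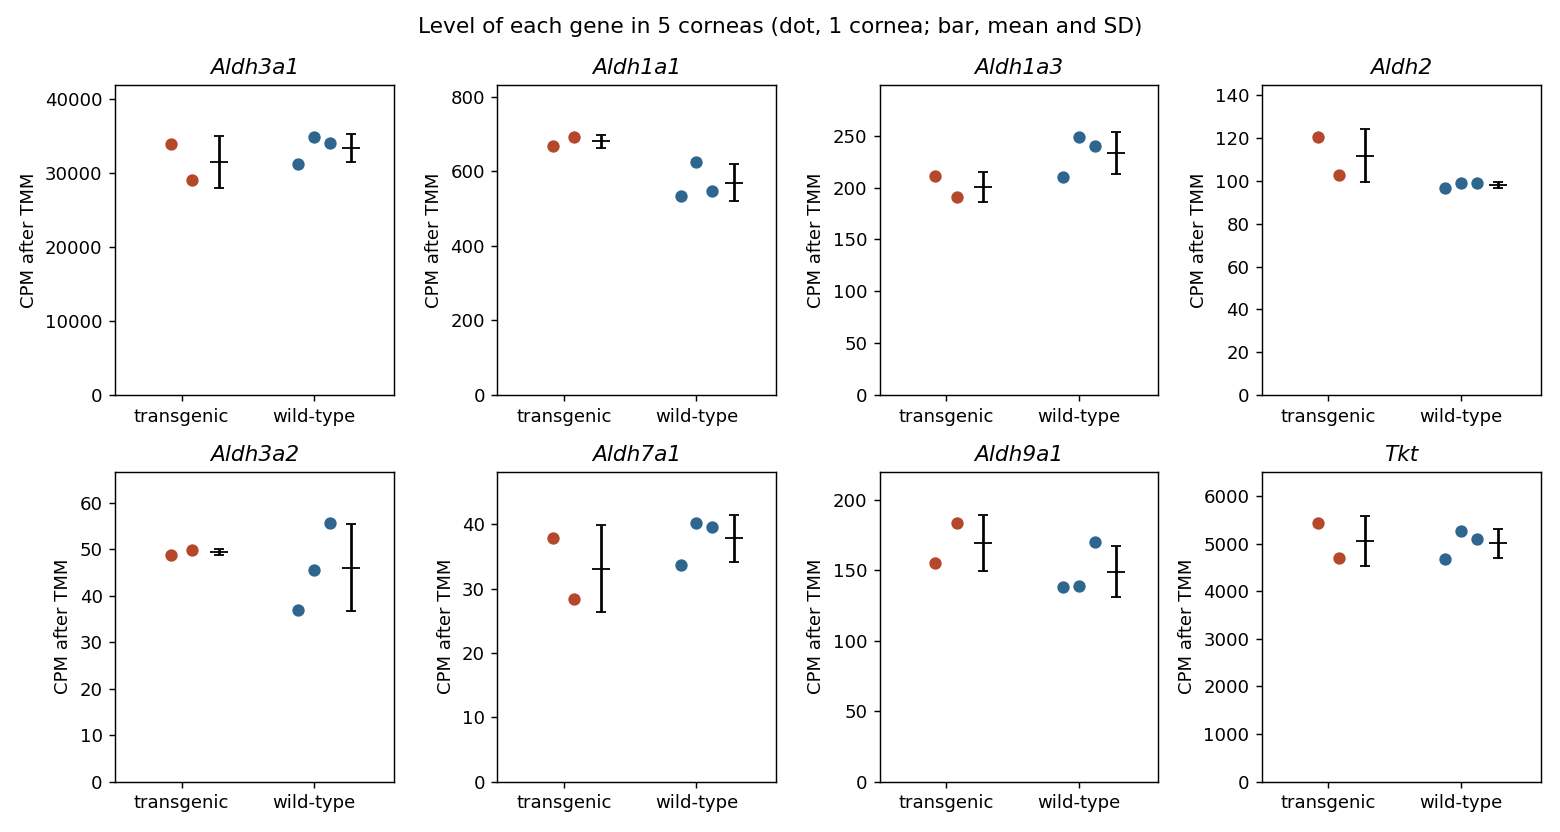
Level of the 8 genes in each cornea, in CPM after TMM on axes that start at 0; each dot is 1 cornea (2 transgenic on the left, 3 wild-type on the right) and the bar is the mean with its SD. The dots of the genotypes overlap in 6 panels and are apart in those of Aldh1a1 and Aldh2, where both transgenic dots lie above the wild-type ones.

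Aldh3a1 drew a large share of the reads of every cornea, and the genotypes overlapped. It took 3.35% and 2.99% of all gene-table counts in transgenic corneas 1 and 2 and 3.12%, 3.41% and 3.40% in wild-type corneas 1 to 3. As whole reads this was 879521 and 909643 counts in transgenic corneas, against 863580, 712418 and 745214 counts in wild-type corneas. The levels were 33905 and 28955 CPM in transgenic corneas and 31180, 34859 and 33930 CPM in wild-type corneas. Transgenic cornea 2 was the lowest of the 5, and transgenic cornea 1 lay inside the wild-type range. The means were 31430 ± 3500 CPM in transgenic (SD, n = 2) and 33323 ± 1913 CPM in wild-type corneas (SD, n = 3). The ratio was 0.943, with a 95% interval of 0.775 to 1.15, and the adjusted p was 0.931 in the edgeR test (log2 fold change -0.08 ± 0.13 SE). The interval includes both lower and higher levels in transgenic corneas, and it does not show that the genotypes are alike. Without transgenic cornea 2 the log2 fold change was 0.03. In the same library, transgenic cornea 2, Krt12 and the summed corneal epithelium markers were also at their lowest, the sum being 105324 and 82896 CPM in transgenic corneas and 89574, 99465 and 93075 CPM in wild-type corneas. Most of that sum came from Krt12 and Krt5, and Krt5, at 30007 CPM, was also at its lowest in transgenic cornea 2. Not every marker on the list was low there: Krt14 (1973 CPM) and Klf5 (344 CPM) were at their highest of the 5. The part of the epithelial share in the Aldh3a1 value was not tested.

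Tkt followed the same order of libraries within each genotype. Its share of all gene-table counts was 0.536% and 0.484% in transgenic corneas and 0.467%, 0.515% and 0.510% in wild-type corneas. Its level was 5426 and 4688 CPM in transgenic corneas, against 4668, 5262 and 5093 CPM in wild-type corneas, and the groups overlapped. The ratio of transgenic to wild-type was 1.01 (95% interval 0.841 to 1.21, edgeR adjusted p = 0.991). The range of Tkt over the 5 corneas was 0.22 on the log2 scale, and 25.7% of the 8759 genes with a mean of at least 10 CPM had a smaller one. For Aldh3a1 the range was 0.27, with 39.8% of those genes below it. At the other end, Aldh3a2 had a range of 0.58, with 87.1% of those genes below it.

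The ratio between the counts of these genes in 1 cornea does not depend on the depth of the library or on the scaling. Aldh3a1 counts over Tkt counts were 6.25 and 6.18 in transgenic corneas and 6.68, 6.63 and 6.66 in wild-type corneas. Means were 6.21 ± 0.0506 in transgenic and 6.66 ± 0.0281 in wild-type corneas (SD, n = 2 and 3). The 2 transgenic values lay below the 3 wild-type values, and the gap between the groups was wider than the spread within either. A ratio does not tell which of its 2 genes differed. With 2 against 3 libraries there are 10 arrangements, the smallest two-sided exact permutation p is 0.2, and no test of the ratio was made. Among the 28 pairs that the 8 genes form, 13 had count ratios that did not overlap between genotypes, where 23.5% of the 87628941 pairs of tested genes with counts in every library did, or 21.4% of pairs of genes with a mean of at least 10 CPM. The pair of Aldh3a1 and Tkt is described because both are enzyme-crystallins of the rodent cornea. The 28 pairs share libraries and genes and are not independent, so their count is a description only.

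Aldh3a1 was 96.5% and 95.9% of the summed counts of the 7 aldehyde dehydrogenases in transgenic corneas, and 96.7% in each of the 3 wild-type corneas, in counts not scaled for transcript length. The other 6 together had 1241 and 1249 CPM in transgenic corneas and 1050, 1199 and 1152 CPM in wild-type corneas. Both transgenic sums lay above the wild-type ones. Aldh1a1 took the most reads of the 6, with 668 and 694 CPM in transgenic corneas. Aldh1a3 and Aldh7a1, also in the sum, had lower point estimates in transgenic corneas.

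**Figure D2:**
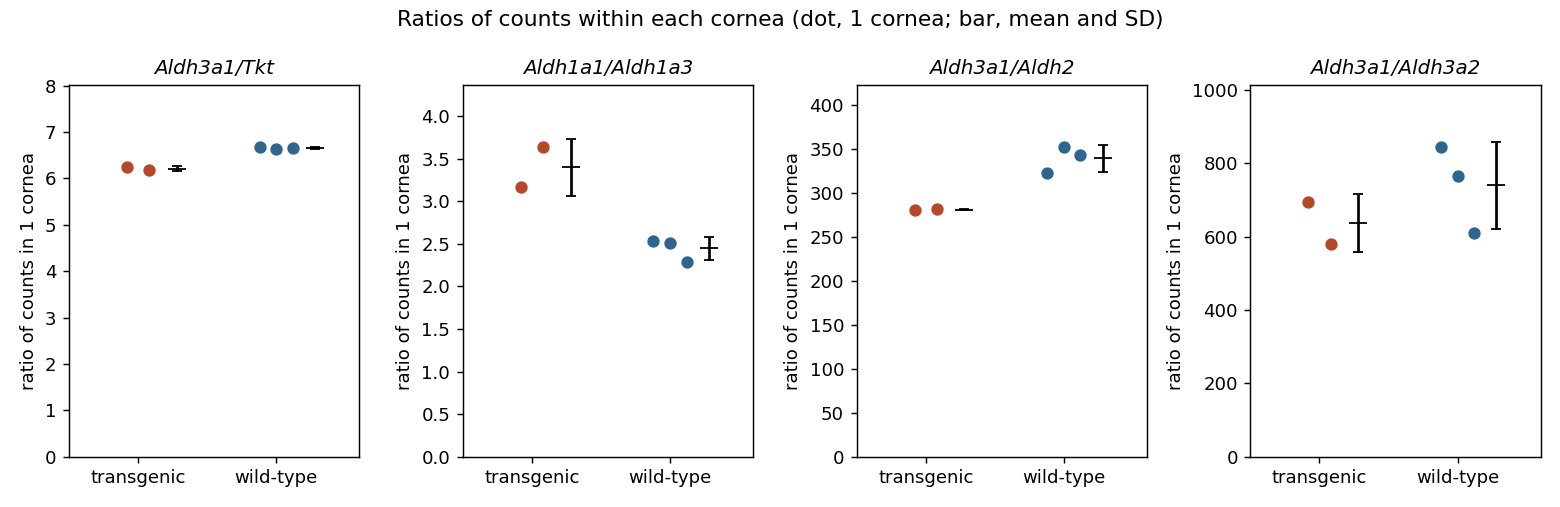
Ratio of the counts of 2 genes within each cornea, on axes that start at 0; each dot is 1 cornea (transgenic left, wild-type right) and the bar is the mean with its SD. The Aldh3a1/Tkt dots lie at 6.18 to 6.25 in transgenic and 6.63 to 6.68 in wild-type corneas, and the Aldh3a1/Aldh3a2 dots of the genotypes overlap. The dots are also apart for Aldh1a1/Aldh1a3 and Aldh3a1/Aldh2, which were added later. Aldh3a1/Aldh2 was 281 in both transgenic corneas and 323 to 352 in wild-type corneas, with Aldh2 counted from its named isoform row only.

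Of the 2 retinoic acid enzymes within this group of genes, Aldh1a1 had a higher and Aldh1a3 a lower point estimate in transgenic corneas, and neither passed. Aldh1a1 had 668 and 694 CPM in transgenic corneas and 534, 626 and 549 CPM in wild-type corneas. Every transgenic value was above every wild-type value, and wild-type cornea 2 came nearest. The means were 681 ± 18.2 CPM in transgenic and 570 ± 49.3 CPM in wild-type corneas (SD, n = 2 and 3), a ratio of 1.19 with a 95% interval of 1.01 to 1.41. In the edgeR test the unadjusted p was 0.0381 and the adjusted p 0.770, and 4.93% of the genes tested had a smaller p. With transgenic cornea 1 left out the unadjusted p was 0.0580, and with transgenic cornea 2 left out it was 0.112. Leaving out wild-type cornea 1 gave 0.119, leaving out wild-type cornea 2 gave 0.0151, and leaving out wild-type cornea 3 gave 0.0975. The stromal and endothelial marker sums given above were higher in the 2 transgenic corneas too, though not every marker was. By point estimate 12 of 14 tested stromal markers were higher and 2, Lum and Cd34, were lower. Of 7 tested endothelial markers 6 were higher and 1, Slc4a11, was lower. The part of these tissues in the Aldh1a1 value was not tested. Counts of Aldh1a1 are fractional in the gene table, as when reads are divided among features, whereas those of Aldh3a1 are whole in every library. Its near copy in rodents, Aldh1a7, had 13.2 and 6.53 CPM in transgenic corneas and 16.6, 4.75 and 12.3 CPM in wild-type corneas, and the division of reads between the 2 is uncertain.

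Aldh1a3 had 211 and 191 CPM in transgenic corneas, against 211, 249 and 240 CPM in wild-type corneas. Transgenic cornea 1 and wild-type cornea 1 were nearly level, and the other wild-type corneas were above both transgenic ones. The ratio was 0.861 (95% interval 0.728 to 1.02, edgeR unadjusted p = 0.0747 and adjusted p = 0.820). The count ratio of Aldh1a1 to Aldh1a3 was 3.16 and 3.64 in transgenic corneas and 2.54, 2.51 and 2.29 in wild-type corneas, without overlap. This pair was picked after its values were seen, and it had the widest separation of the 28 in mean log2 ratio, 0.47 higher in transgenic corneas.

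Start-site sequences of Aldh1a1 and Aldh1a3 are shown because the 2 genes encode enzymes of the same reaction and had point estimates of opposite sign, and that of Tkt because it is the enzyme-crystallin with an entry in the promoter table. The table, from RefSeq on build GRCr8, holds 250 bases before and 50 after the start of 6 of the 8 genes; Aldh3a1 and Aldh2 have no entry. Capitals mark matches on either strand to any of 5 motifs: the hormone response half-site AGAACA, the core of the aryl hydrocarbon receptor site GCGTG, the antioxidant response element TGACNNNGC, the GC box GGGCGG and the TATA box TATAAA. Aldh1a1 lies at chr1:227537370-227537669 on the plus strand, Aldh1a3 at chr1:129427594-129427893 on the minus strand and Tkt at chr16:5729982-5730281 on the plus strand.
Aldh1a1: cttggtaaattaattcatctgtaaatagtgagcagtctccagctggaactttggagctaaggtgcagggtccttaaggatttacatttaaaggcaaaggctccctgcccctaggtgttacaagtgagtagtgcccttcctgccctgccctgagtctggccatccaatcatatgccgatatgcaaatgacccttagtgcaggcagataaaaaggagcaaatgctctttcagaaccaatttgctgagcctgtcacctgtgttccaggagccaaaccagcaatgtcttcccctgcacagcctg
Aldh1a3: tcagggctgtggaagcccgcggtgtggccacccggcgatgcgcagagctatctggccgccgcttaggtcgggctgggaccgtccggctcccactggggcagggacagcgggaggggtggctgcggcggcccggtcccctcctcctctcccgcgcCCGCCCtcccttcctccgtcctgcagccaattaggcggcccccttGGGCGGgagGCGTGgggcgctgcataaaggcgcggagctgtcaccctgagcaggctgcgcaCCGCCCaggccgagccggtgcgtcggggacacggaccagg
Tkt: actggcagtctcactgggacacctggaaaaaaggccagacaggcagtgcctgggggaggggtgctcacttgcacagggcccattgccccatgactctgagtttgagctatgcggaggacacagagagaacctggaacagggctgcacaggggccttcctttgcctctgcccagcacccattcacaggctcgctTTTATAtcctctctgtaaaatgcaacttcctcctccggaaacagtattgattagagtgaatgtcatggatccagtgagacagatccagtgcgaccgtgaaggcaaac

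The Aldh1a1 window was 48.3% G and C and held 0 matches to any of the 5 motifs. The Aldh1a3 window was 74.3% G and C and held 3 GC boxes and 1 GCGTG core, and the matches did not overlap each other. The Tkt window was 54.3% G and C and held 1 match to the TATA box letters, printed as their reverse complement. That match reads TATAAA on the strand opposite to Tkt, not in the direction of the gene. Over all 33469 promoter windows of that length, 20.7% held the hormone response half-site, 29.7% the GCGTG core, 12.1% the antioxidant response element, 33.1% a GC box and 14.2% a TATA box. Among the 6 windows, only that of Aldh3a2 held the half-site, with 1 match. A match is a run of letters and not a bound site, and the absence of one covers these 300 bases alone.

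Aldh2, the mitochondrial enzyme, had 121 and 103 CPM in transgenic corneas and 96.6, 98.9 and 98.9 CPM in wild-type corneas. The 3 wild-type corneas had an SD of only 1.35 CPM, both transgenic corneas were above them, and transgenic cornea 1 was well above the rest. The ratio was 1.14 (95% interval 0.979 to 1.33, edgeR unadjusted p = 0.0836 and adjusted p = 0.828). Without transgenic cornea 1 the log2 fold change was 0.07, against 0.19 with all 5 libraries. This value comes from 1 isoform row and leaves out any isoform of the gene that carries no name.

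Aldh3a2, the fatty aldehyde enzyme whose loss causes Sjögren-Larsson syndrome in humans, lies beside Aldh3a1 on rat chromosome 10, with 2 annotated features between them in GRCr8. It had 48.9 and 49.8 CPM in transgenic corneas and 36.9, 45.6 and 55.6 CPM in wild-type corneas. The transgenic values fell in the middle of the wild-type range, and the ratio was 1.07 (95% interval 0.833 to 1.38, edgeR adjusted p = 0.936). Its order over the libraries was unlike that of its neighbour: wild-type cornea 3 was the highest for Aldh3a2 and wild-type cornea 2 for Aldh3a1. The count ratio of Aldh3a1 to Aldh3a2 was 694 and 581 in transgenic corneas, against 845, 765 and 610 in wild-type corneas, with overlap.

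Aldh7a1 had 37.9 and 28.4 CPM in transgenic corneas and 33.7, 40.1 and 39.6 CPM in wild-type corneas. Transgenic cornea 2 was the lowest, as it was for Aldh3a1 and Aldh1a3. The ratio was 0.876 (95% interval 0.700 to 1.10, edgeR adjusted p = 0.861). Aldh9a1 had 155 and 183 CPM in transgenic corneas, against 138, 139 and 170 CPM in wild-type corneas, with transgenic cornea 2 the highest of the 5. Its ratio was 1.14 (95% interval 0.940 to 1.37, edgeR adjusted p = 0.859). The log2 fold change was 0.18 with all libraries, 0.30 without transgenic cornea 1, 0.06 without transgenic cornea 2 and 0.29 without wild-type cornea 3.

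**Figure D3:**
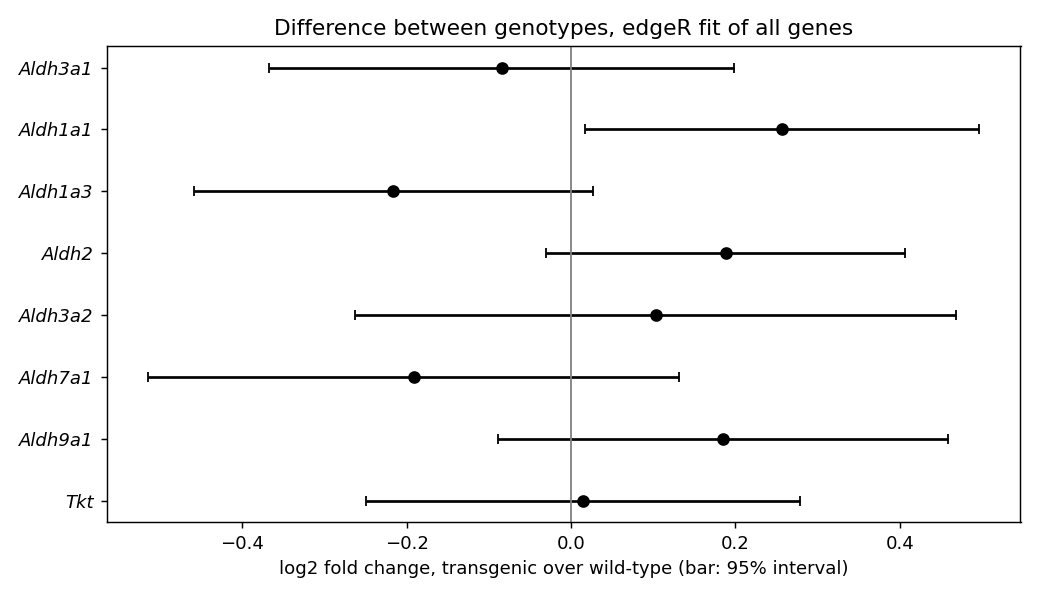
Log2 fold change of each gene, transgenic over wild-type, with its 95% interval from the edgeR fit of all genes; the grey line is no difference. Point estimates lie between -0.22 (Aldh1a3) and 0.26 (Aldh1a1), and 7 of the 8 intervals cross the line.

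The isoform table splits the reads of these genes further. For Aldh3a1 the row that carries the gene's name held 79.5% and 79.1% of the gene's counts in transgenic corneas and 78.7%, 81.8% and 78.9% in wild-type corneas. The remaining counts equalled 1 row without a gene name in all 5 libraries, within 0.05 counts. For Tkt the named row held 69.0% and 68.6% in transgenic and 68.4%, 70.2% and 69.7% in wild-type corneas, and for Aldh1a1 67.5% and 67.1% in transgenic and 67.4%, 69.5% and 66.8% in wild-type corneas, and the remainders again equalled 1 unnamed row each. For Aldh1a3 the named row held 98.6% and 95.1% in transgenic and 96.9%, 92.6% and 96.2% in wild-type corneas, with 1 matching unnamed row. These shares overlapped between genotypes for all 4 genes.

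Of 27110 isoforms tested with edgeR, 0 passed (0% of isoforms, with 3.98% at an unadjusted p under 0.05), so no isoform of these genes did. Among the 13 rows of the 8 genes, named or matched, the smallest p was that of the unnamed row matched to Aldh1a1, at 206 and 217 CPM in transgenic corneas and 165, 180 and 172 CPM in wild-type corneas (log2 fold change 0.30 ± 0.08, unadjusted p = 0.0125). The named Aldh1a1 row had 428 and 441 CPM in transgenic and 341, 410 and 346 CPM in wild-type corneas, so both rows were higher in the 2 transgenic corneas than in the 3 wild-type ones, as 11.2% of isoforms tested were. The minor named row of Aldh3a2 had 1.28 and 2.26 CPM in transgenic corneas and 0.581, 0 and 1.85 CPM in wild-type corneas from an average of 33.9 counts.

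The remaining aldehyde dehydrogenases gave no call either. Of 14 listed, 9 were tested, 0 rose and 0 fell, and DESeq2 and limma voom called 0. By point estimate 6 were higher and 3 lower (median log2 fold change 0.11). In the edgeR test 1 of the 9 had an unadjusted p under 0.05, where 6.35% of all genes tested did. Aldh1a2, the third retinoic acid enzyme, had 2.20 and 5.19 CPM in transgenic corneas and 2.09, 1.76 and 1.55 CPM in wild-type corneas (edgeR adjusted p = 0.731), and its difference came mainly from transgenic cornea 2. Without that cornea its log2 fold change was 0.28, against 1.04 with all libraries. Aldh6a1, which acts in valine breakdown, had 57.4 and 58.6 CPM in transgenic corneas and 57.0, 58.5 and 67.6 CPM in wild-type corneas. Aldh3b1 had 1.31 and 1.27 CPM in transgenic corneas, against 0.975, 1.08 and 0.683 CPM in wild-type corneas (edgeR adjusted p = 0.873).

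Genes of retinoid uptake, conversion and response around Aldh1a1 and Aldh1a3 gave 0 that rose and 0 that fell among 21 tested. By point estimate 11 were higher and 10 lower (median log2 fold change 0.04). In the edgeR test 3 of the 21 had an unadjusted p under 0.05, where 6.35% of all genes tested did. Stra6, the membrane receptor for retinol uptake, had 5.82 and 5.83 CPM in transgenic corneas and 2.35, 2.98 and 3.01 CPM in wild-type corneas. The transgenic values were about level and both above the wild-type ones (log2 fold change 1.07 ± 0.24, edgeR adjusted p = 0.404). DESeq2 called the gene (adjusted p = 0.0408), and limma voom did not (adjusted p = 0.495). Over all genes DESeq2 called 52, where edgeR called 1. Rarb, a retinoic acid receptor, had 8.17 and 10.7 CPM in transgenic corneas and 5.38, 5.63 and 6.28 CPM in wild-type corneas (0.72 ± 0.19, edgeR adjusted p = 0.492). Cyp26a1, Cyp26b1 and Cyp26c1 were among the genes with lower point estimates in transgenic corneas. Their log2 fold changes were -0.94, -0.42 and -0.60 (edgeR adjusted p = 0.828, 0.883 and 0.859). Adh7, an alcohol dehydrogenase that oxidizes retinol, had 1051 and 1187 CPM in transgenic corneas and 1105, 991 and 1152 CPM in wild-type corneas, with overlap. The summed iris and pigment-cell markers were higher in both transgenic corneas, as given above, and their part in the Stra6, Rarb and Aldh1a2 values was not tested.

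**Figure D4:**
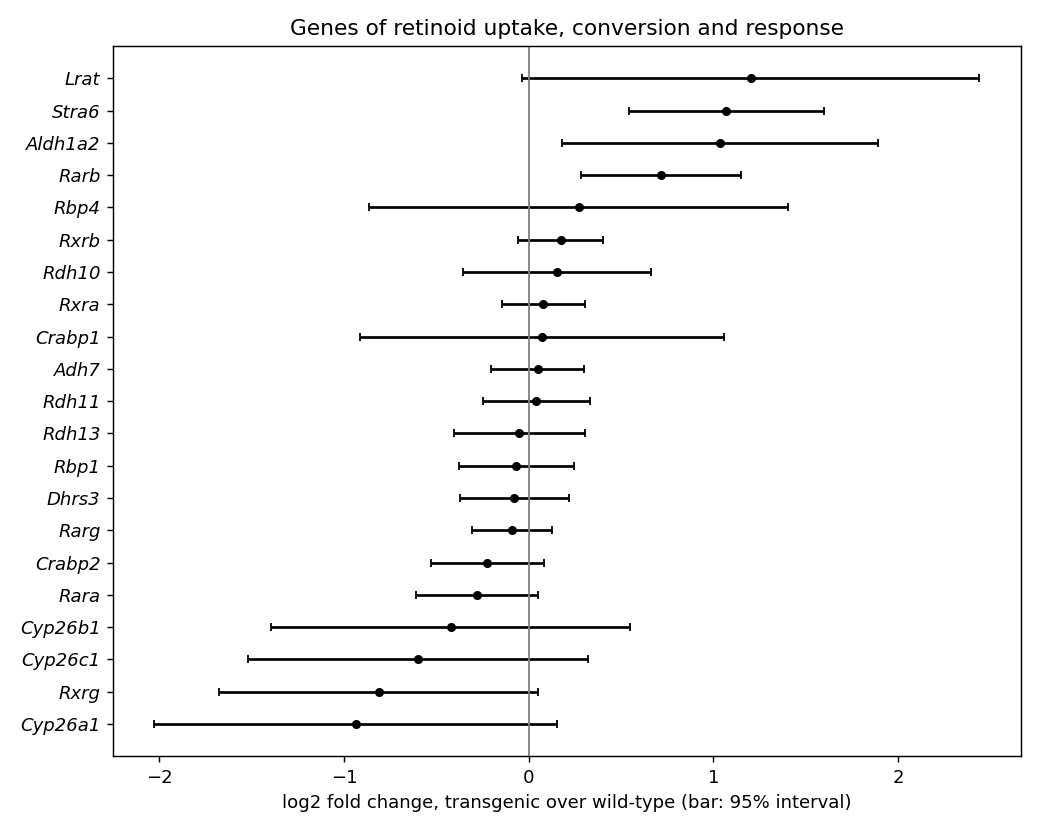
Log2 fold change of the 21 tested genes of the retinoid list, transgenic over wild-type, with 95% intervals from the edgeR fit; genes are ordered by their estimate and the grey line is no difference. Most intervals cross the line, and those of Stra6, Aldh1a2 and Rarb lie wholly above it.

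The pentose phosphate pathway around Tkt also gave 0 that rose and 0 that fell among 7 tested, with a median log2 fold change of 0.05 (0 had an unadjusted p under 0.05, and DESeq2 and limma voom called 0). Taldo1, transaldolase, the partner of transketolase in the sugar exchange steps, had 532 and 580 CPM in transgenic corneas and 502, 611 and 507 CPM in wild-type corneas. Rpe, the epimerase that supplies one substrate of transketolase, had 45.2 and 45.5 CPM in transgenic corneas, against 47.2, 50.8 and 48.3 CPM in wild-type corneas (edgeR adjusted p = 0.878). Prps1, which turns ribose phosphate towards nucleotides, had 5.40 and 6.18 CPM in transgenic and 5.31, 4.89 and 5.37 CPM in wild-type corneas.

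Soluble enzymes and small heat-shock proteins named as crystallins in corneas or lenses of various species gave 0 that rose and 0 that fell among 13 tested, 7 higher and 6 lower by point estimate (median log2 fold change 0.01); 0 had an unadjusted p under 0.05, and DESeq2 and limma voom called 0. Ldha, a lactate dehydrogenase subunit, had 627 and 548 CPM in transgenic corneas and 621, 729 and 613 CPM in wild-type corneas. The small heat-shock protein gene Hspb1 had 309 and 351 CPM in transgenic corneas, against 270, 305 and 270 CPM in wild-type corneas (edgeR adjusted p = 0.802). Ldhb, the other lactate dehydrogenase subunit, had 131 and 81.0 CPM in transgenic corneas and 131, 144 and 146 CPM in wild-type corneas (log2 fold change -0.41 ± 0.20, edgeR adjusted p = 0.828). The low value is that of transgenic cornea 2 alone, and without transgenic cornea 1 the gene was called lower (log2 fold change -0.79, edgeR adjusted p = 0.0444), from 1 transgenic library assumed to vary like the wild-type ones.

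Other routes that remove aldehydes, by reduction or by joining to glutathione, gave 0 that rose and 0 that fell among 15 tested, with a median log2 fold change of 0.03 (0 had an unadjusted p under 0.05, and DESeq2 and limma voom called 0). Akr1b1, aldose reductase, had 35.1 and 40.4 CPM in transgenic corneas and 29.5, 31.5 and 34.1 CPM in wild-type corneas (0.25 ± 0.11, edgeR adjusted p = 0.790). Gstp1, a glutathione transferase, had 215 and 168 CPM in transgenic corneas, against 190, 147 and 148 CPM in wild-type corneas. Ptgr1, a reductase of lipid aldehydes and eicosanoids, had 894 and 921 CPM in transgenic corneas and 944, 988 and 1036 CPM in wild-type corneas (-0.12 ± 0.10, edgeR adjusted p = 0.873), with both transgenic values below the wild-type ones.

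Factors studied for the ALDH3A1 and ALDH1A1 promoters gave 0 that rose and 0 that fell among 13 tested, with a median log2 fold change of 0.01. DESeq2 and limma voom called 0. In the edgeR test 1 of the 13 had an unadjusted p under 0.05, where 6.35% of all genes tested did. Klf4, an epithelial factor, had 1222 and 1048 CPM in transgenic corneas and 1270, 1225 and 1147 CPM in wild-type corneas. Ahr, the aryl hydrocarbon receptor, through which xenobiotics induce Aldh3a1 in liver, had 95.8 and 115 CPM in transgenic corneas, against 77.3, 85.9 and 97.1 CPM in wild-type corneas (0.28 ± 0.12, edgeR adjusted p = 0.778). Nfe2l2, which encodes the oxidative stress factor NRF2, had 139 and 156 CPM in transgenic corneas and 165, 159 and 157 CPM in wild-type corneas (edgeR adjusted p = 0.873).

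The genes whose pattern over the 5 corneas was most like that of Aldh3a1 were Pik3r2, a regulatory subunit of a phosphoinositide kinase, Psmd2, a subunit of the proteasome, and Fam102a. Likeness was the root mean square difference of log2(CPM + 0.5) deviations from each gene's own mean, over 3784 named genes that averaged 50 CPM or more. It was 0.0103, 0.0108 and 0.0158 for the 3 genes, against a median of 0.119. For Tkt the nearest were Mta3, a chromatin remodelling subunit, the tubulin gene Tubb5 and Pam, a peptide-amidating enzyme, at 0.0154, 0.0163 and 0.0176. Between Aldh3a1 and Tkt themselves the difference was 0.0492, and Tkt ranked 151 of 3784 in likeness to Aldh3a1. The ranks of the other members compared with Aldh3a1 were 551 for Aldh1a3, 2328 for Aldh2, 3199 for Aldh1a1 and 3372 for Aldh9a1. With 5 points that share depth and scaling these are descriptions only.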

How the data were processed

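RNA of whole corneas was measured in 2 transgenic and 3 wild-type rats. The values as deposited by the authors are expected counts, that is estimated counts for each gene and each isoform, neither scaled nor log-transformed, since column totals differ. Tools named per the submitters' processing notes, without role or order, are RSEM 1.2.28, STAR 2.5.3a, fastp, FastQC, edgeR 3.28.0 and DESeq2 1.26.0; the build named is rn6. The strand setting is unknown. Aldh2, without a gene row, was added from its isoform row.

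Counts were rounded, filtered with filterByExpr (minimum count 10) and scaled by TMM. All genes or isoforms were tested two-sided by the robust quasi-likelihood test of edgeR 4.0.16 (R 4.3.3), adjusted by Benjamini-Hochberg at a threshold of 0.05. The SE is the absolute log2 fold change divided by the square root of F, and 95% intervals use its t distribution. Members, lists, tests and rules were chosen with earlier results of these data known. Named genes are the 8 members and, of each pathway list, the 2 of smallest p and that of highest mean CPM; isoform rows averaging at least 1 CPM were compared. Sums of marker lists, the Cyp26 genes, pairs of members other than Aldh3a1 with Tkt or Aldh3a2, and promoter motifs were added later. The labels do not say that the rats of a group came from separate litters, so p-values measure the spread between these libraries. CPM per kilobase, fixed in the design, was not computed for lack of lengths. The procedure was tested on simulated counts. Alternatives were RLE and upper quartile scaling, other filters, DESeq2 1.42.0, voom in limma 3.58.1, a fit that was not robust, each library left out, a replicate block, and summed isoforms.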

Additional observations from a re-analysis of the deposited data

How the results depend on the processing

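None of the 8 genes was called by any alternative run: RLE or upper quartile scaling, no filter, a mean of at least 10 CPM, DESeq2, limma voom, a fit that was not robust, each library left out, the replicate block, or summed isoform rows (0 to 2 of them had an unadjusted p under 0.05). With another scaling, filter or tool the gene under 0.05 was Aldh1a1, joined by Aldh2 with upper quartile scaling, but it changed with the libraries: Aldh1a1 without wild-type cornea 2, Aldh1a3 without wild-type cornea 1, Aldh9a1 without wild-type cornea 3 and with the block, Aldh7a1 without transgenic cornea 1 and Aldh2 without transgenic cornea 2. Over all genes, 1 was called, against 2 without a filter, 52 with DESeq2, 2 with summed isoforms, 16 with the replicate block, and 2 to 36 with a library left out; isoform calls stayed at 0 in every alternative run. Whether equal replicate numbers mark paired libraries is not known. Deviations from group means correlated across genes at 0.000617 for number 1 and -0.105 for number 2. With 2 transgenic libraries their deviations mirror each other, so these correlations are not separate and cannot decide it. Wild-type cornea 3 has no transgenic cornea of its number, so the block takes no genotype difference from it. For Aldh9a1 the log2 fold change was 0.284 with the block and 0.293 without that cornea. The block called none of the 8. It turned the log2 fold change of Aldh6a1 to 0.0066 and that of the unnamed Aldh3a1 row to 0.0042. With a library left out, log2 fold changes ran from -0.20 to 0.027 for Aldh3a1, -0.027 to 0.27 for Aldh3a2, -0.41 to 0.0053 for Aldh7a1, 0.062 to 0.30 for Aldh9a1, -0.10 to 0.12 for Tkt, -0.11 to 0.010 for Aldh6a1, -0.021 to 0.15 for Taldo1, -0.041 to 0.13 for Adh7, -0.21 to 0.011 for Klf4 and -0.33 to 0.17 for Krt12. For isoforms they ran from -0.20 to 0.029 for the named Aldh3a1 row and -0.14 to 0.062 for the unnamed one, -0.038 to 0.21 for Aldh3a2, -0.41 to 0.013 for Aldh7a1, -0.10 to 0.12 for the named Tkt row and -0.043 to 0.15 for the unnamed one. The Aldh3a1 to Tkt count ratio was lower in transgenic corneas by a difference of -0.44, by -0.48 to -0.41 with a library left out and by -0.49 with named isoforms only; for the Aldh3a1 share of the 7 aldehyde dehydrogenases the difference was -0.54 percentage points, and -0.84 to -0.24 with a library left out. Causes of these moves were not tested. Per-kilobase levels were not run. With 2 transgenic libraries, each gene's own 95% interval gives the ratios that were not excluded for it.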
